A study of Mus musculus with 55 samples.

Results

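The comparison described here sets infarct tissue of type 2 diabetic mice against infarct tissue of non-diabetic mice 7 days after myocardial infarction. Its members are the 8 RNA-seq libraries titled type 2 diabetic at day 7 and the 8 titled non-diabetic at day 7, 16 of the 55 libraries of the series, and they were taken by title alone. All 16 came from left ventricular infarct of C57BL/6J mice in which a coronary artery had been tied off permanently, so the controls were infarcted too. The names of the type 2 libraries carry lo_STZ_HFFD and those of the non-diabetic libraries Ctrl; the labels do not spell these out, and they give no age, sex, glucose value or treatment time. Everything in that induction is thus joined to the diabetic state and cannot be told apart from it. Of the other groups, 8 type 1 diabetic libraries at day 7, and 11 non-diabetic and 10 type 2 diabetic libraries at day 28, were used to test where this difference differs from others. The names of the type 1 libraries carry hi_STZ, which the labels do not spell out either. These 8 type 1 libraries also stood in the main fit and shared its estimate of the spread. The fit of both days also held the type 1 libraries of day 28.

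The library names begin with a number that the labels do not explain. The 8 type 2 libraries carry 4 such numbers, of which 14 and 26 stand on 3 libraries each, and the 8 non-diabetic libraries carry 6. No label ties a replicate to an animal of its own. The p-values therefore refer to the variation among these libraries, and an unknown share of it may be technical. Library totals ran from 10756242 to 46812053 counts in non-diabetic and from 30812809 to 48187379 in type 2 tissue. Mitochondrial genes took 3.17 to 9.23 percent of counts in the former and 2.87 to 7.34 percent in the latter. Markers of heart muscle were abundant in every library, with a mean log2 CPM (log2 of CPM, the counts scaled to a common library size) over 20 cardiomyocyte genes of 8.26 to 10.27 in non-diabetic and 7.46 to 9.78 in type 2 tissue. Non-diabetic replicates 4 (the shallowest library) and 5 lay farthest from the rest on the leading 2 principal components, which held 24.2 and 20.3 percent of the variance. The main counts are therefore also given without both.

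A healing infarct at this stage is a mixed tissue. Monocytes and macrophages clear dead muscle, fibroblasts and myofibroblasts lay down collagen and elastic matrix, and lymphocytes and natural killer (NK) cells arrive in smaller numbers. Many of these cells can answer interferons. Type I interferons signal through the IFNAR1 and IFNAR2 receptor chains to transcription factors that include STAT2 and IRF9, and interferon gamma, made by T and NK cells, signals through a receptor of its own. The factors bind the interferon-stimulated response element or the gamma-activated site in gene promoters and switch on sensors of viral nucleic acid, antiviral effectors, feedback inhibitors, antigen presentation genes and chemokines.

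Interferon-stimulated and leukocyte genes were among those higher in type 2 than in non-diabetic infarcts, and matrix genes among those lower. Of 18165 genes tested, 700 rose (3.85 percent) and 636 fell (3.5 percent) at an adjusted p of at most 0.05 by edgeR's quasi-likelihood test, with p-values adjusted by the Benjamini-Hochberg method (n = 8 against 8). The rises were the stronger calls: 114 rises and 7 falls had an adjusted p of at most 0.001. The median log2 change was 0.58 among rises, -0.44 among falls and -0.03 over all genes tested. All 8 type 2 libraries lay above all 8 non-diabetic libraries for 226 genes (1.24 percent) and below them for 75 genes (0.413 percent), and 220 and 72 of these were also called. Over the interferon lists 72 of 132 tested members rose and none fell, over the matrix lists 2 rose and 32 of 128 fell, and over the metabolism lists 9 rose and 3 fell of 159.

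**Figure D1:**
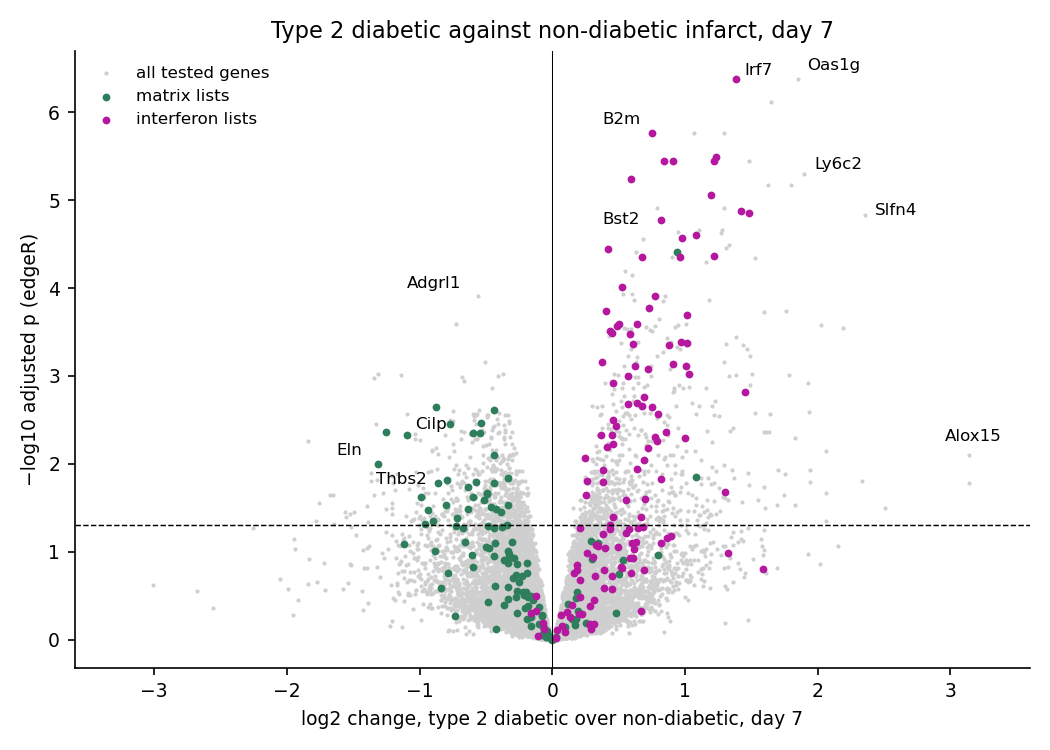
Each point is 1 of the 18165 genes tested; the x axis is the log2 change of type 2 diabetic over non-diabetic infarct at day 7 and the y axis −log10 of edgeR's adjusted p, with the dashed line at 0.05. Members of the interferon lists (magenta) lie mostly to the right, with Irf7 and Oas1g at the top (Oas1g stood outside the lists). Members of the matrix lists (green) lie mostly to the left. Adgrl1, which also stood outside the lists, had the smallest adjusted p among the falls.

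Several limits apply to all of these counts. The number of rises was 459 without non-diabetic replicate 2 and 608 without non-diabetic replicates 4 and 5 together. The number of falls was 368, 372 and 411 without non-diabetic replicates 1, 2 and 4, 291, 268, 395 and 310 without type 2 replicates 1, 3, 4 and 5, and 346 without non-diabetic replicates 4 and 5 together. When libraries of 1 group whose names begin with the same number were summed into 1 sample, 167 genes rose and 9 fell, all of them also called above; 46 members of the interferon lists still rose and 0 matrix members fell (2385 genes had an unadjusted p under 0.05 in that fit, against 4148 in the fit of single libraries). Over the immune cell lists 14 members still rose in the summed fit, against 58 with single libraries. That summing ended the call of 80 of the 134 called genes of the naming rule that the text names, among them all of the matrix list genes described below as having fallen. Leukocyte genes moved with the groups as well: the mean log2 CPM of 10 pan-leukocyte markers was 5.78 to 6.48 in non-diabetic and 6.55 to 6.83 in type 2 tissue, with no overlap, so leukocyte level and group cannot be told apart in these libraries. With that mean as a covariate 8 genes rose and 0 fell in edgeR (2469 had an unadjusted p under 0.05). They were Ifi213, Ifi208, B2m, Oas1g, Oas2, Irf7, Ifi27l2a and Ms4a4b, the last chosen after its values were seen. Of those 134 genes, 122 missed the threshold under this covariate with the same sign and 5 (Cilp, Cfp, Csf3r, Soat1 and Slc11a1) with the opposite sign.

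The reference promoters of part of the interferon-list genes that rose hold a core of the response element named above, and stretches are printed here for genes described in the text whose upstream window holds one. The windows run from 250 bases before to 50 bases after each gene's start (RefSeq, GRCm38.p6), and the motif searched was GAAANNGAAA on either strand. Of the 28 interferon-list genes that rose and were chosen for naming, 20 had a window, and the motif stood upstream in 8. The stretches below run 5′ to 3′ on the gene's strand, with the matches in capitals and positions counted back from -1, the base before the start.
Isg15: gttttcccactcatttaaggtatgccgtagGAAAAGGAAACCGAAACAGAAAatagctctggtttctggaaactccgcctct
Bst2: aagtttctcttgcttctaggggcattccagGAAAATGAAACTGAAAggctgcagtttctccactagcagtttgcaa
Oas1a: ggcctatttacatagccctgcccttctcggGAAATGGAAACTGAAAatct
Oas3: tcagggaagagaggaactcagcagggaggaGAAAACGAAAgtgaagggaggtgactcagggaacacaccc
B2m: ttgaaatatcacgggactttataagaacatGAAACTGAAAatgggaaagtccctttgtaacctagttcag
Gbp3: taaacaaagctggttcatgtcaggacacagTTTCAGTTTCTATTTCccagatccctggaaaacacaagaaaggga
Ctss: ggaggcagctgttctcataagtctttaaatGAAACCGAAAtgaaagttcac
Cxcl10: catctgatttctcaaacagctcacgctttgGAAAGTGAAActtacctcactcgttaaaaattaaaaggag

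Isg15 (chr4:156200845-156200926, minus strand) holds 3 overlapping matches between positions -78 and -57. Bst2 (chr8:71537557-71537632, minus strand) has 2 overlapping matches from -130 to -115, and Oas1a (chr5:120907526-120907575, minus strand) 2 from -20 to -5. Gbp3, at chr3:142559969-142560043 (plus strand), carries the motif on the other strand, where it reads TTTCNNTTTC, at -45 to -30. Single matches stand in Oas3 (chr5:120777695-120777764, minus strand) at -75 to -66, in B2m (chr2:122147518-122147587, plus strand) at -139 to -130, in Ctss (chr3:95526735-95526785, plus strand) at -21 to -12 and in Cxcl10 (chr5:92349063-92349132, minus strand) at -213 to -204. The other 12 genes with a window, among them Irf7, Irf9, H2-K1 and Cxcl9, have no match in these letters upstream in this window.

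Over all genes with a window, GAAANNGAAA stood in 40.7 percent of the interferon-list members that rose (22 of 54), in 16.3 percent of all rises (86 of 527), in 13.5 percent of the rises outside the interferon lists (64 of 473), in 2.17 percent of the falls (10 of 461) and in 3.99 percent of all 27025 genes of the promoter table. The gamma-activated site TTCNNNGAA, which reads the same on both strands, stood in 20.4, 10.6, 9.51, 8.03 and 9.55 percent of the same sets. Over all tested interferon-list members with a window, whether or not they rose, the shares were 34.4 percent (33 of 96) for GAAANNGAAA and 26.0 percent for TTCNNNGAA. That set includes the members that rose, and whether either motif goes with the rise within these lists was not tested. Both motifs were looked for over the whole 300 bases and may overlap each other. In the 150 bases nearest the start, GAAANNGAAA stood in 25.9 percent of the interferon-list members that rose, 11.0 percent of all rises and 1.85 percent of the whole table. Fewer than 80 percent of the genes in the sets that rose or fell had a window (54 of 72 and 527 of 700 among rises), so the shares are void as a check over the sets and describe the genes with a window. A match is not a measured binding site.

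Genes that sense nucleic acid in cells rose in part. Of 14 tested sensors and adaptors 9 rose and 0 fell, with a median log2 change of 0.50. Zbp1, a sensor of unusual nucleic acid that can trigger cell death, stood at 9.85 to 20.4 CPM (median 18.1) in non-diabetic and 31.6 to 54.6 CPM (median 37.2) in type 2 tissue, and the groups did not overlap. Its log2 change was 1.22 (SE 0.13, adjusted p = 3.64e-06). Dhx58, which encodes the RNA helicase LGP2, was at 12.9 to 19.4 CPM (median 17.1) in non-diabetic and 26.4 to 35.7 CPM (median 29) in type 2 tissue, again without overlap, a rise of 0.84 (SE 0.093, adjusted p = 3.64e-06). Ifih1, which encodes the RNA sensor MDA5, rose by 0.68 (SE 0.092, adjusted p = 4.46e-05).

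The interferons and their receptors gave 0 calls in edgeR, though 8 of 9 tested changes were positive (median log2 change 0.21). Of 14 listed ligands and receptors, 9 were expressed enough to be tested and 0 passed in edgeR, with 2 at an unadjusted p under 0.05; DESeq2 called 1 and limma-voom 0. The list's mean log2 CPM was 3.55 to 3.99 in non-diabetic and 3.97 to 4.20 in type 2 tissue. The genes for interferon beta and interferon gamma were below the filter. Ifnar1, the first receptor chain for type I interferon, was at 88.4 to 110.4 CPM (median 103) in non-diabetic and 97.8 to 108 CPM (median 104) in type 2 tissue, with a log2 change of 0.036 (SE 0.061, adjusted p = 0.783). Ifnar2, the other chain, had the smallest p of the list at 0.21 (SE 0.066, adjusted p = 0.0542), and DESeq2 called it at an adjusted p of 0.0309.

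Transcription factors of the pathway rose in part, 5 of 12 and 0 lower. Irf7, the factor that amplifies type I interferon production and is itself interferon-induced, had with Oas1g the smallest adjusted p of all genes. Its level was 40.8 to 66.2 CPM (median 60.4) in non-diabetic and 129 to 204 CPM (median 135) in type 2 tissue and the groups did not overlap. The log2 change was 1.39 (SE 0.13, adjusted p = 4.17e-07). Irf9, the DNA-binding partner of STAT2, was at 40.1 to 61.1 CPM (median 57.7) in non-diabetic and 64.8 to 76.1 CPM (median 70.9) in type 2 tissue, also without overlap, and rose by 0.37 (SE 0.077, adjusted p = 0.00473).

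The antiviral effectors had the highest share of called members among the interferon lists. Of 30 tested, 28 rose and 0 fell, the median log2 change was 0.81, and for 24 of them the groups did not overlap. As a list mean, log2 CPM was 4.87 to 5.42 (median 5.12) over the non-diabetic libraries and 5.74 to 6.21 (median 5.91) over the type 2 libraries, so each type 2 library lay above each non-diabetic one. Oas2, which makes the messenger that activates RNase L, was at 21.2 to 42.4 CPM (median 33.2) in non-diabetic and 65.9 to 100.1 CPM (median 73) in type 2 tissue, a rise of 1.24 (SE 0.13, adjusted p = 3.2e-06). Its relatives Oas3 and Oas1a rose by 1.48 (SE 0.18, adjusted p = 1.4e-05) and 1.20 (SE 0.14, adjusted p = 8.71e-06).

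Isg15, a ubiquitin-like protein joined to other proteins in the interferon response, was at 12.3 to 39 CPM (median 24.9) in non-diabetic and 38.3 to 64.2 CPM (median 47.3) in type 2 tissue, so the groups overlapped by a small margin. It rose by 1.01 (SE 0.17, adjusted p = 0.00076). Bst2, which encodes tetherin and holds budding virus at the cell surface, was at 56.9 to 95.4 CPM (median 80.1) in non-diabetic and 126 to 162 CPM (median 138) in type 2 tissue with no overlap and rose by 0.82 (SE 0.10, adjusted p = 1.69e-05). Rtp4, an interferon-induced chaperone of membrane receptors, rose by 0.91 (SE 0.10, adjusted p = 3.64e-06). Reads of the Oas1 genes can come from close paralogs, so Oas1a and Oas1g are uncertain as single genes.

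**Figure D2:**
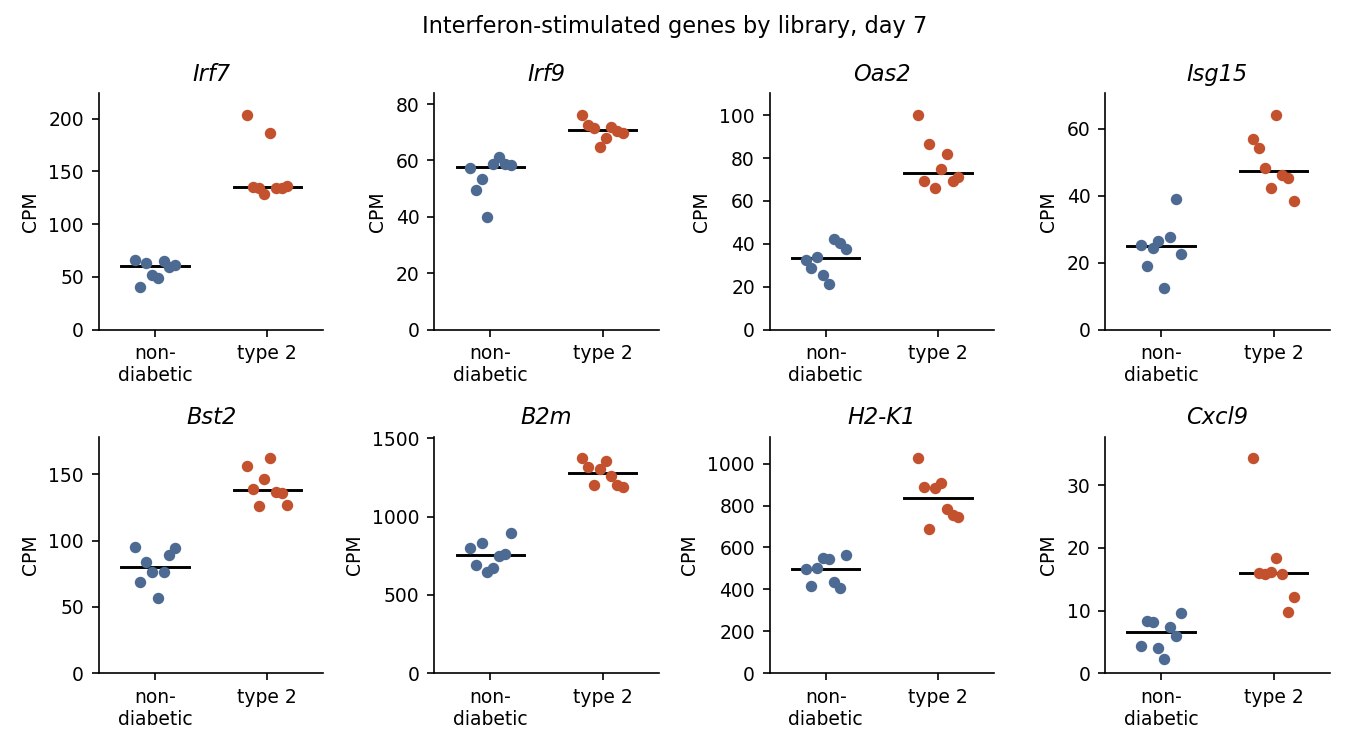
Level of 8 genes in each library at day 7, in CPM (linear axes from 0); each point is 1 library (8 non-diabetic, 8 type 2 diabetic) and the bar is the group's median. The groups do not overlap for Irf7, Irf9, Oas2, Bst2, B2m, H2-K1 and Cxcl9, and overlap slightly for Isg15.

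The list of feedback inhibitors rose in part. Of its 9 tested members 5 rose and 0 fell (median 0.31). Not every member acts mainly as an inhibitor, so this is not a count of inhibitors alone. Usp18, which removes ISG15 from proteins and blocks the type I receptor, was at 9.48 to 16.1 CPM (median 11.2) in non-diabetic and 19.8 to 35.5 CPM (median 24.6) in type 2 tissue, without overlap, and rose by 1.09 (SE 0.14, adjusted p = 2.48e-05). Sp100, a nuclear body protein, rose by 0.59 (SE 0.068, adjusted p = 5.78e-06), and Ptpn6, the phosphatase SHP-1 of blood cells, by 0.46 (SE 0.091, adjusted p = 0.00316).

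Guanylate-binding proteins and immunity-related GTPases are typical targets of interferon gamma. Among 16 of them 4 rose and 0 fell in edgeR, 10 rose in DESeq2 and 15 in limma-voom; 15 of 16 changes were positive and the median was 0.58. Their mean log2 CPM ran from 3.36 to 5.15 in non-diabetic tissue, where replicate 5 was highest, and from 4.29 to 5.09 in type 2 tissue. Without non-diabetic replicate 5 the number that rose was 14, and it was 0 with libraries summed. Gbp3 was at 23.9 to 66.4 CPM (median 37.5) in non-diabetic and 54.4 to 68.5 CPM (median 57.5) in type 2 tissue and rose by 0.64 (SE 0.15, adjusted p = 0.0115). Ifi47, an immunity-related GTPase, rose by 0.69 (SE 0.16, adjusted p = 0.00901), and the very large GTPase Gvin1 by 0.79 (SE 0.17, adjusted p = 0.00555).

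Class I antigen presentation lets T cells read internal peptides of a cell. Of 16 tested genes 11 rose and 0 fell (median 0.43), 7 of them without overlap. B2m, the light chain shared by class I molecules, was at 645 to 896 CPM (median 758) in non-diabetic and 1191 to 1372 CPM (median 1281) in type 2 tissue. Although its rise of 0.75 (SE 0.078, adjusted p = 1.71e-06) was smaller than that of Irf7 or Oas2, its adjusted p was among the smallest of all genes. H2-K1, a class I heavy chain, was at 404 to 564 CPM (median 498) in non-diabetic and 686 to 1025 CPM (median 834) in type 2 tissue, a rise of 0.77 (SE 0.11, adjusted p = 0.000124), and Psmb8 of the immunoproteasome rose by 0.64 (SE 0.099, adjusted p = 0.000255). Reads of H2-K1 can come from other class I genes.

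Class II presentation, the task of macrophages, dendritic cells and B cells, gave 2 rises and 0 falls among 10 tested genes, though all 10 changes were positive (median 0.50). Ctss, the protease that trims the class II invariant chain, was at 697 to 1296 CPM (median 1022) in non-diabetic and 1304 to 1731 CPM (median 1464) in type 2 tissue and rose by 0.57 (SE 0.11, adjusted p = 0.0021). The other rise was H2-DMb1, at 0.44 (adjusted p = 0.0494), a call that held without non-diabetic replicates 4 or 7 or type 2 replicate 8 and ended without any 1 of the other 13 libraries (0.36 to 0.47). The list mean was 4.44 to 5.83 in non-diabetic tissue, with replicate 5 lowest, and 5.72 to 6.24 in type 2 tissue.

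Chemokines that guide T cells, NK cells and monocytes, listed with some of their receptors, rose in 8 of 16 tested members with 0 falls (median 0.84). Cxcl9 was at 2.28 to 9.6 CPM (median 6.64) in non-diabetic and 9.85 to 34.3 CPM (median 16) in type 2 tissue, without overlap, and rose by 1.46 (SE 0.27, adjusted p = 0.0015). Cxcl10 rose by 1.00 (SE 0.21, adjusted p = 0.0051), with levels of 5.7 to 14.2 CPM (median 8.78) in non-diabetic and 11.6 to 34.7 CPM (median 17.1) in type 2 tissue. Without type 2 replicate 1 the list had 5 rises. Ccl5, made by T and NK cells among others, rose by 1.03 (SE 0.18, adjusted p = 0.000958), and Ccl8, a macrophage chemokine, by 0.86 (SE 0.18, adjusted p = 0.00432).

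Leukocyte markers moved with these genes, and in whole tissue a gene's rise by more cells cannot be told apart from more RNA per cell. Of the 10 pan-leukocyte markers 5 rose and 0 fell, all 10 changes were positive, and no marker was at 0 in any library. Ptprc, which encodes CD45, was at 88.5 to 157 CPM (median 142) in non-diabetic and 192 to 245 CPM (median 217) in type 2 tissue, without overlap, a rise of 0.74 (SE 0.12, adjusted p = 0.000301). Cd53 and Cd52 rose by 0.59 (SE 0.094, adjusted p = 0.00029) and 0.63 (SE 0.11, adjusted p = 0.000686). Over the interferon-list members that rose, the median log2 change was 0.69; with the leukocyte mean as a covariate it was 0.48, and with the cardiomyocyte mean 0.69. In edgeR the leukocyte covariate left Irf7 at 1.20 (adjusted p = 0.0232) and B2m at 0.67 (adjusted p = 0.0327). Ptprc stood at 0.38 (adjusted p = 0.331), but it is itself 1 of the 10 markers in that mean. Its lost call is therefore no separate result.

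**Figure D3:**
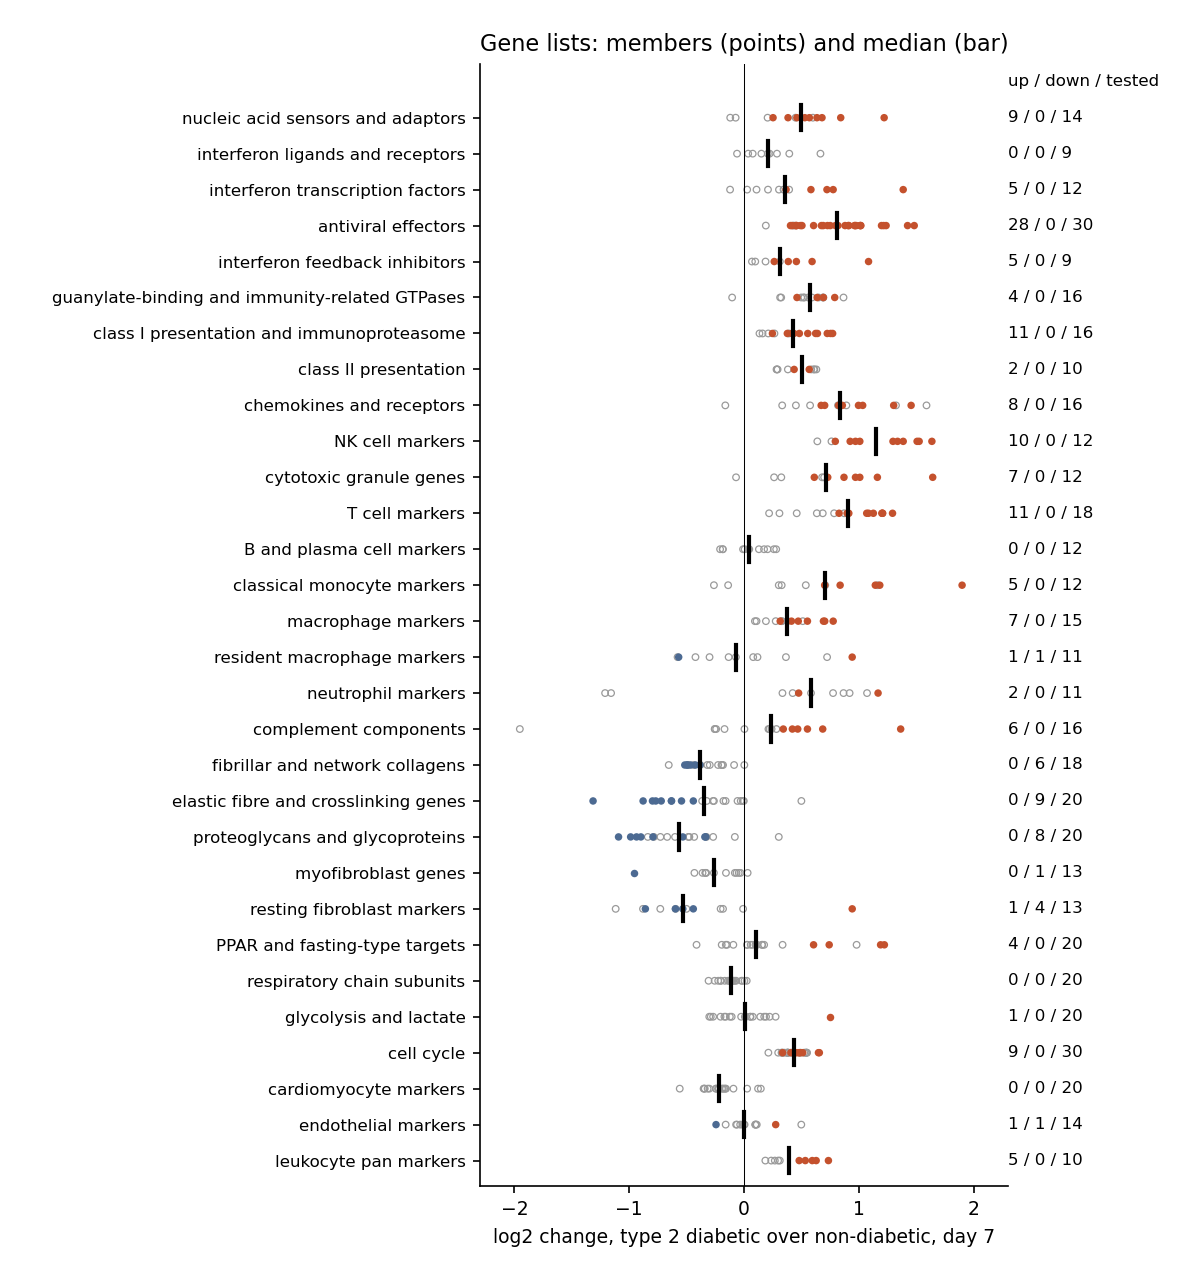
Log2 change (x axis) of each tested member of 30 gene lists, type 2 diabetic over non-diabetic infarct at day 7: filled points passed edgeR's test (orange higher, blue lower), open points did not, and the black bar is the list's median. The numbers to the right give members that rose, fell and were tested, from 28, 0 and 30 for the antiviral effectors to 0, 8 and 20 for the proteoglycans and glycoproteins.

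NK cell genes were low in all libraries and higher in type 2 tissue. Of 12 tested NK markers 10 rose and 0 fell, with a median log2 change of 1.15. With libraries summed by leading number 4 of the 12 rose. The list's mean log2 CPM was -1.25 to -0.20 in non-diabetic and 0.28 to 0.84 in type 2 tissue, without overlap, and no marker was at 0 in any library. Klrk1, which encodes the activating receptor NKG2D, was at 0.771 to 2.66 CPM (median 1.88) in non-diabetic and 3.39 to 6.43 CPM (median 4.41) in type 2 tissue and rose by 1.30 (SE 0.22, adjusted p = 0.000686). Klrb1c, the NK1.1 antigen, rose by 1.51 (SE 0.26, adjusted p = 0.000958), and Eomes, a transcription factor of NK cells and some T cells, by 1.39 (SE 0.24, adjusted p = 0.000986).

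Cytotoxic granule genes followed. Of 12 tested, 7 rose and 0 fell (median 0.71), and 1 rose with libraries summed. Gzmb, which encodes granzyme B, was at 0.213 to 1.35 CPM (median 0.508) in non-diabetic and 1.16 to 3.09 CPM (median 1.41) in type 2 tissue and rose by 1.64 (SE 0.32, adjusted p = 0.00269). Nkg7, a granule membrane protein, rose by 1.16 (SE 0.21, adjusted p = 0.00138), and Prf1, the pore-forming perforin, by 1.01 (SE 0.25, adjusted p = 0.0165).

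T cell genes rose as well, 11 of 18 markers with 0 falls and a median of 0.90. Their mean log2 CPM was -0.06 to 0.93 in non-diabetic tissue, with replicate 5 lowest, and 1.21 to 1.68 in type 2 tissue. With libraries summed 1 of the 18 markers rose, and 0 of the 16 T cell subset and checkpoint genes. Lck, the kinase that starts T cell receptor signalling, was at 1.6 to 3.54 CPM (median 2.87) in non-diabetic and 3.71 to 7.05 CPM (median 6.06) in type 2 tissue, without overlap, and rose by 1.09 (SE 0.21, adjusted p = 0.00268). The surface receptor Cd6 rose by 1.20 (SE 0.23, adjusted p = 0.00221). Among 16 genes of T cell subsets and checkpoints 4 rose and 0 fell, among them Pdcd1, which encodes PD-1, by 1.26 (SE 0.32, adjusted p = 0.0189), the interleukin-2 receptor chain Il2ra by 0.98 (SE 0.22, adjusted p = 0.00845) and the interleukin-7 receptor Il7r by 0.72 (SE 0.17, adjusted p = 0.0121). Of 12 B and plasma cell markers 0 rose and 0 fell in edgeR, DESeq2 and limma-voom, with 0 at an unadjusted p under 0.05 (median 0.04), and their mean was highest in non-diabetic replicate 4 (3.88) and type 2 replicate 4 (3.34).

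Monocyte and macrophage genes were higher in part. Of 12 classical monocyte markers 5 rose and 0 fell (median 0.71), 3 without non-diabetic replicate 2 or without type 2 replicate 1. Ly6c2, the surface antigen of inflammatory monocytes, was at 2.29 to 4.05 CPM (median 2.81) in non-diabetic and 6.84 to 18.9 CPM (median 9.29) in type 2 tissue, without overlap, and rose by 1.90 (SE 0.21, adjusted p = 4.98e-06); its reads can come from other Ly6 genes. Plac8 rose by 1.18 (SE 0.17, adjusted p = 0.000138) and the integrin Itgal, shared with lymphocytes, by 0.84 (SE 0.14, adjusted p = 0.00053). Ccr2, the receptor that brings monocytes out of bone marrow, rose by 0.70 (SE 0.19, adjusted p = 0.0248), and this call ended without non-diabetic replicate 2 (0.67, adjusted p = 0.0524) or type 2 replicate 1 (0.57, adjusted p = 0.0634), and with limma-voom (0.42, adjusted p = 0.0551). Of 12 patrolling monocyte markers 3 rose and 1 fell, with 1 rise without type 2 replicate 1 or 3: Spn rose by 0.65 (SE 0.11, adjusted p = 0.000414), while Ace, the angiotensin-converting enzyme, which vessels also make, fell by 0.60 (SE 0.14, adjusted p = 0.0131), and by 0.38 (adjusted p = 0.0664) without non-diabetic replicates 4 and 5 together.

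Among 15 macrophage markers 7 rose and 0 fell (median 0.38), 4 without non-diabetic replicate 2 or without type 2 replicate 3. With libraries summed 2 of the 15 rose. Fcgr1, a high-affinity antibody receptor induced by interferon, was at 30.7 to 65.2 CPM (median 56) in non-diabetic and 74.4 to 112 CPM (median 88.9) in type 2 tissue, without overlap, and rose by 0.78 (SE 0.12, adjusted p = 0.000272). Adgre1, which encodes F4/80, and Aif1 rose by 0.47 (SE 0.12, adjusted p = 0.0199) and 0.69 (SE 0.14, adjusted p = 0.00263). Fcgr4, another antibody receptor, was at 19.5 to 43.7 CPM (median 30.8) in non-diabetic and 54.5 to 79.8 CPM (median 64.4) in type 2 tissue, without overlap, and rose by 1.07 (SE 0.11, adjusted p = 1.71e-06). Resident macrophage markers gave 1 rise and 1 fall of 11. Folr2, a folate receptor, rose by 0.94 (SE 0.16, adjusted p = 0.000464), without overlap. The fall was Gas6, and Mrc1, the mannose receptor, was not called: it was at 89.6 to 259 CPM (median 139) in non-diabetic and 114 to 199.9 CPM (median 155) in type 2 tissue, with a log2 change of 0.12 (SE 0.17, adjusted p = 0.743). Of 15 lipid-associated macrophage genes only Plin2, a lipid droplet coat protein, passed, at 0.74 (SE 0.17, adjusted p = 0.0104); Spp1, which encodes osteopontin, was at 511 to 1400 CPM (median 907) in non-diabetic and 915 to 1968 CPM (median 1175) in type 2 tissue, with 0.50 (SE 0.21, adjusted p = 0.148).

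Of 11 tested neutrophil markers 2 rose and 0 fell, among them Mmp8, a collagenase of neutrophil granules, by 1.17 (SE 0.24, adjusted p = 0.0042). S100a8 was at 1.34 to 20.5 CPM (median 3.96) in non-diabetic and 2.79 to 14.8 CPM (median 6.43) in type 2 tissue. The type 2 range thus lay within the non-diabetic one. Its log2 change in edgeR was 0.34 (SE 0.60, adjusted p = 0.797), and 0.12 to 1.01 on leaving out each library in turn. The change was lowest without type 2 replicate 1 and highest without non-diabetic replicate 5. Il1b was at 0.754 to 7.9 CPM (median 5.38) in non-diabetic and 3.44 to 18.4 CPM (median 5.85) in type 2 tissue, with 0.56 (SE 0.41, adjusted p = 0.434). Of 14 inflammasome and interleukin-1 genes 4 rose and 0 fell, all 14 changes were positive (median 0.41) and 8 had an unadjusted p under 0.05; the count was 2 without non-diabetic replicate 2 or type 2 replicate 5 and 1 without type 2 replicate 3. Il18bp, the soluble inhibitor of interleukin-18, rose by 0.50 (SE 0.13, adjusted p = 0.0193), and Il1rn, the interleukin-1 receptor antagonist, by 0.96 (SE 0.25, adjusted p = 0.0206), a call that ended without type 2 replicate 3 (0.88, adjusted p = 0.0528). In the plasmacytoid dendritic cell list, cells known for type I interferon output, 1 of 8 tested markers rose, and that was Bst2, which is also an interferon-induced effector. The 14 conventional dendritic cell markers gave 0 calls in edgeR, with 4 at an unadjusted p under 0.05 (median 0.09; 1 rise and 1 fall each in DESeq2 and limma-voom), and Mgl2, a lectin of dendritic cells and macrophages, was at -0.94 (SE 0.31, adjusted p = 0.0639), while DESeq2 and limma-voom called it lower (adjusted p = 0.0254 and 0.0116).

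Complement genes rose in 6 of 16 tested members with 0 falls (median 0.23). Cfb, the factor B of the alternative pathway, rose by 1.37 (SE 0.28, adjusted p = 0.00389), from 0.213 to 0.878 CPM (median 0.532) in non-diabetic and 0.804 to 1.88 CPM (median 1.38) in type 2 tissue. C1qa, a macrophage-made chain of C1q, was at 344 to 618 CPM (median 494) in non-diabetic and 586 to 749 CPM (median 662) in type 2 tissue and rose by 0.42 (SE 0.087, adjusted p = 0.00395). Properdin, encoded by Cfp, rose by 0.69 (SE 0.17, adjusted p = 0.0162).

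Matrix genes moved the other way. Over the 8 matrix lists 32 of 128 tested genes fell and 2 rose, with a median log2 change of -0.28, against 3.5 percent of falls over all genes. The count was 19 without type 2 replicate 1, 19 without type 2 replicate 3, 20 without type 2 replicate 5, and 22 without non-diabetic replicates 4 and 5 together. As stated above, 0 were called lower when libraries sharing a leading number were summed, or with the leukocyte covariate. The list medians were -0.38 for collagens, -0.34 for elastic fibre genes and -0.57 for proteoglycans and glycoproteins; they were -0.44, -0.43 and -0.52 with libraries summed, and -0.24, -0.31 and -0.15 with the leukocyte covariate.

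Elastic fibre genes had the highest count of falls among the matrix lists, 9 of 20 with 0 rises (median -0.34). Eln, which encodes elastin, ranged from 1042 to 4259 CPM (median 2329) in non-diabetic and 451 to 1976 CPM (median 1025) in type 2 tissue, so the groups overlapped while the medians differed more than 2-fold, and it fell by 1.32 (SE 0.30, adjusted p = 0.00992). Ltbp4, a microfibril protein needed to assemble elastic fibres, was at 531 to 1174 CPM (median 839) in non-diabetic and 338 to 607 CPM (median 496) in type 2 tissue and fell by 0.77 (SE 0.16, adjusted p = 0.00354). The microfibril proteins Mfap2 and Mfap5 fell by 0.88 (SE 0.17, adjusted p = 0.00226) and 0.44 (SE 0.085, adjusted p = 0.00245); for Mfap5 all type 2 libraries lay below all non-diabetic ones.

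Of 18 fibrillar and network collagens 6 fell and 0 rose (median -0.38); 2 fell without type 2 replicate 1 or 3, 3 without type 2 replicate 5, and 9 in DESeq2. The most abundant ones came close to the threshold without passing: Col1a1 was at 10370 to 16550 CPM (median 14020) in non-diabetic and 6845 to 13160 CPM (median 9691) in type 2 tissue, with a log2 change of -0.48 (SE 0.15, adjusted p = 0.0508), and Col3a1 at -0.38 (SE 0.12, adjusted p = 0.0519), while DESeq2 called both (adjusted p = 0.0185 and 0.0183). The calls were for other collagens. Col16a1 was at 460.1 to 596 CPM (median 546) in non-diabetic and 241 to 448 CPM (median 405) in type 2 tissue, without overlap, and fell by 0.49 (SE 0.13, adjusted p = 0.0221), and Col5a3 fell by 0.49 (SE 0.13, adjusted p = 0.0213), also without overlap; without non-diabetic replicates 4 and 5 Col5a3 stood at -0.30 (adjusted p = 0.116). Col5a1 fell by 0.52 (SE 0.14, adjusted p = 0.0256). These 3 calls ended without 1 library: Col16a1 without type 2 replicate 3 (-0.46, adjusted p = 0.0549), Col5a3 without non-diabetic replicate 4 (-0.43, adjusted p = 0.0526), and Col5a1 without type 2 replicate 1 (-0.45, adjusted p = 0.0606) or non-diabetic replicate 5 (-0.40, adjusted p = 0.0536). The lowest type 2 library for the collagen list mean was replicate 1 (9.70, against 10.10 to 10.33 in the other 7).

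Enzymes that process collagen gave 2 falls and 0 rises of 15 tested (median -0.10). Adamts2, which cleaves the amino end of procollagen, fell by 0.44 (SE 0.098, adjusted p = 0.00796), and P3h3, a collagen prolyl hydroxylase, fell by 0.33 (SE 0.082, adjusted p = 0.0145) without overlap. Proteoglycans and glycoproteins fell in 8 of 20 members with 0 rises (median -0.57). The count was 4 without non-diabetic replicate 1, 2 or 3, 5 without non-diabetic replicate 4 or type 2 replicate 8, and 3 without type 2 replicate 1, 3 or 5. Cilp, a matrix protein of injured heart, was at 354 to 909 CPM (median 574) in non-diabetic and 185 to 362 CPM (median 258) in type 2 tissue and fell by 1.09 (SE 0.23, adjusted p = 0.00473). Thbs2, a thrombospondin, was at 886 to 1756 CPM (median 1347) in non-diabetic and 343 to 941 CPM (median 788) in type 2 tissue, with type 2 replicate 1 far below the rest, and fell by 0.79 (SE 0.20, adjusted p = 0.0153). Smoc2, a calcium-binding matrix protein, fell by 0.53 (SE 0.11, adjusted p = 0.0034), without overlap.

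**Figure D4:**
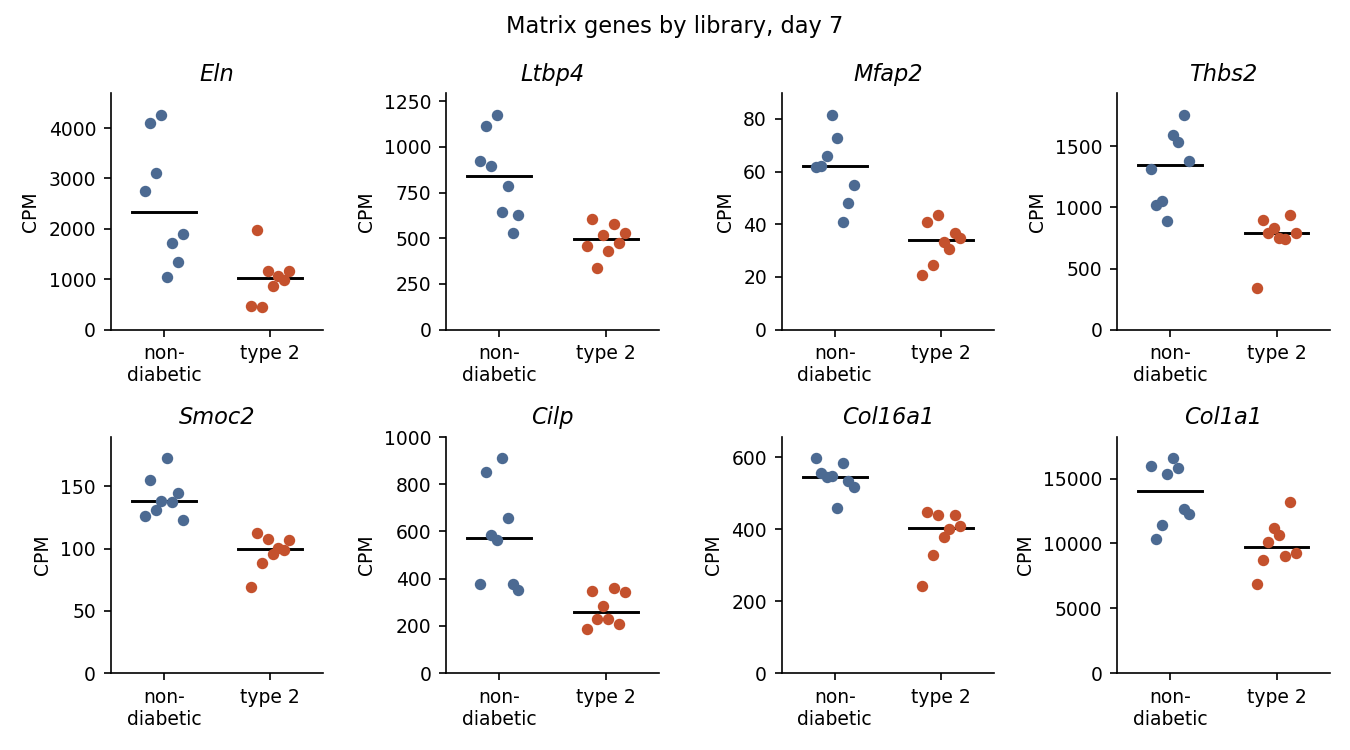
Level of 8 matrix genes in each library at day 7, in CPM (linear axes from 0); each point is 1 library (8 non-diabetic, 8 type 2 diabetic) and the bar is the group's median. Type 2 medians are lower for all 8; the groups do not overlap for Smoc2 and Col16a1, and Col1a1 did not pass the test (adjusted p = 0.0508).

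Myofibroblast genes gave few calls: 1 of 13 fell and 0 rose (median -0.26). Only 1 of the 13 changes was positive, and DESeq2 called 2 lower and limma-voom 4. Acta2, the smooth muscle actin of contractile fibroblasts, was at 549 to 1631 CPM (median 1196) in non-diabetic and 920.5 to 1576 CPM (median 1056) in type 2 tissue, with a log2 change of 0.032 (SE 0.18, adjusted p = 0.941), and Postn, which encodes periostin, at -0.33 (SE 0.17, adjusted p = 0.248). Of 13 markers of resting fibroblasts 4 fell and 1 rose. Gsn, an actin-severing protein, fell by 0.60 (SE 0.12, adjusted p = 0.00441), and the exception was Ly6a, the stem cell antigen Sca-1, which is also interferon-induced: it was at 76.3 to 94.7 CPM (median 84.4) in non-diabetic and 128 to 236 CPM (median 152) in type 2 tissue, without overlap, and rose by 0.94 (SE 0.13, adjusted p = 3.92e-05).

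TGF-beta genes, which drive matrix synthesis, gave 1 fall and 0 rises of 16 (median -0.12). Tgfb1 was at 60.2 to 113 CPM (median 81.3) in non-diabetic and 68 to 87.8 CPM (median 80.5) in type 2 tissue, with a log2 change of -0.063 (SE 0.09, adjusted p = 0.734), while Tgfb3 was at 352 to 427 CPM (median 376) in non-diabetic and 142 to 309.9 CPM (median 261) in type 2 tissue, without overlap, and fell by 0.60 (SE 0.16, adjusted p = 0.0236), a call that ended without type 2 replicate 3 (-0.57, adjusted p = 0.0541). Matrix proteases and inhibitors split, 1 up and 3 down of 17: the collagenase Mmp13 rose by 1.08 (SE 0.26, adjusted p = 0.0141), and the inhibitor Timp2 and the protease Mmp23 fell by 0.44 (SE 0.11, adjusted p = 0.0167) and 0.58 (SE 0.14, adjusted p = 0.0163).

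Over the metabolism lists 5.66 percent of 159 genes rose and 1.89 percent fell, against 3.85 and 3.5 percent of all genes. Of 20 PPAR and fasting-type targets 4 rose and 0 fell (median 0.11). Angptl4, a secreted inhibitor of lipoprotein lipase, was at 22.1 to 105 CPM (median 57.9) in non-diabetic and 72.9 to 178 CPM (median 139) in type 2 tissue and rose by 1.22 (SE 0.24, adjusted p = 0.00279), and the mitochondrial carrier Ucp2, abundant in leukocytes, rose by 0.61 (SE 0.15, adjusted p = 0.0184). Pdk4, the kinase that shuts pyruvate out of oxidation, was at 56.4 to 182 CPM (median 112) in non-diabetic and 110.3 to 498 CPM (median 225) in type 2 tissue and rose by 1.19 (SE 0.35, adjusted p = 0.0369). This last call was near the threshold and ended on leaving out any 1 of 8 libraries: non-diabetic replicates 1 (1.18), 2 (1.10) and 3 (1.10), and type 2 replicates 1 (1.23), 3 (1.22), 5 (1.23), 6 (1.11) and 8 (0.99), the largest adjusted p being 0.0818.

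Genes of oxidation gave 0 calls in edgeR, DESeq2 and limma-voom: 0 of 20 for fatty acid oxidation and the TCA cycle (median -0.08; 1 at an unadjusted p under 0.05) and 0 of 20 for respiratory chain subunits (median -0.12; 0 at an unadjusted p under 0.05). Their members with the smallest p were Echs1, at -0.23 (SE 0.11, adjusted p = 0.207), and Cox4i1, at -0.17 (SE 0.12, adjusted p = 0.434). With the cardiomyocyte mean as a covariate 1 gene of the oxidation list rose and 0 of the respiratory list did. The fatty acid importers and switches Cd36 and Cpt1a were at 0.058 and 0.18 and Ucp3 at 0.98 (SE 0.37, adjusted p = 0.103), none of them called. Of 20 glycolysis genes 1 rose, the leukocyte hexokinase Hk3, by 0.75 (SE 0.13, adjusted p = 0.00101), without overlap; the muscle isoform Hk2 was at -0.11 and the insulin-regulated glucose carrier Slc2a4 at -0.52 (SE 0.34, adjusted p = 0.377), both not called. Insulin signalling and FoxO targets gave 0 calls of 17 in edgeR, DESeq2 and limma-voom, with 0 at an unadjusted p under 0.05 (median -0.10), and Igfbp4, a binding protein for insulin-like growth factors, fell by 0.73 (SE 0.17, adjusted p = 0.0102), the 1 call of 12 in its list.

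Of 16 LXR targets and lipid efflux genes 3 rose and 0 fell. Abcg1, a cholesterol exporter, was at 54.9 to 77.2 CPM (median 63.2) in non-diabetic and 81.9 to 106 CPM (median 89.1) in type 2 tissue, without overlap, and rose by 0.52 (SE 0.10, adjusted p = 0.00226), and Abca1, another exporter, rose by 0.56 (SE 0.11, adjusted p = 0.00263); the third was Soat1, which esterifies cholesterol. The monocarboxylate carrier Slc16a7 was the 1 rise among 7 ketone body genes, at 0.51 (SE 0.13, adjusted p = 0.0196).

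Of the stress lists, cell cycle genes gave 9 rises and 0 falls of 30, and all 30 changes were positive, each at an unadjusted p under 0.05 (median 0.43); DESeq2 called 18 and limma-voom 12. The count moved with single libraries: it was 4, 2, 3, 2, 2, 20 and 24 without non-diabetic replicates 1 to 7, 3, 18, 1, 5 and 1 without type 2 replicates 1 to 5, and 3 without type 2 replicate 7. Aurkb, a mitotic kinase, rose by 0.48 (SE 0.11, adjusted p = 0.00942), and E2f1, a factor of S phase entry, by 0.34 (SE 0.09, adjusted p = 0.0233), the latter lost without type 2 replicate 3 (0.32, adjusted p = 0.0520) or 5 (0.32, adjusted p = 0.0505). With non-diabetic replicates 4 and 5 both left out 1 of the 30 rose, and with libraries summed 0. In the unfolded protein and integrated stress list 3 of 19 rose (7 and 9 without non-diabetic replicates 6 and 7, 6 without type 2 replicate 2, 8 in DESeq2), among them Asns, which makes asparagine, by 0.67 (SE 0.14, adjusted p = 0.00409), and Psat1, of serine synthesis, by 0.55 (SE 0.13, adjusted p = 0.0124). Hypoxia genes gave 0 calls of 12 in edgeR, with 1 at an unadjusted p under 0.05 and 1 called in DESeq2 and in limma-voom, NRF2 targets 1 rise of 14 (Slc7a11), and clock genes 2 falls of 15 (Cry2 and Nr1d1).

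Of 20 cardiomyocyte markers and 15 cardiac ion channel and calcium genes 0 were called in edgeR, DESeq2 and limma-voom, and 0 had an unadjusted p under 0.05 (medians -0.22 and -0.11). Myh6, the main adult heart myosin, was at 1231 to 8469 CPM (median 3893) in non-diabetic and 533 to 6327 CPM (median 4241) in type 2 tissue, with -0.16 (SE 0.56, adjusted p = 0.901), Tnnt2 at -0.32 (SE 0.23, adjusted p = 0.439) and the stretch hormone Nppa at -0.23 (SE 0.25, adjusted p = 0.632). Mural cell markers gave 2 falls of 11, Pdgfrb by 0.45 (SE 0.10, adjusted p = 0.0105) and Notch3 by 0.56 (SE 0.13, adjusted p = 0.012), and both missed the threshold without non-diabetic replicates 4 and 5 together (-0.35, adjusted p = 0.0548, and -0.37, adjusted p = 0.0664). Endothelial markers gave 1 rise (Emcn) and 1 fall (Erg) of 14. Lymphatic endothelial, Schwann, adipocyte, epicardial and erythroid markers gave 0 calls in edgeR among 8, 8, 6, 10 and 8 tested genes, of which 4, 1, 0, 2 and 8 had an unadjusted p under 0.05. DESeq2 called 1, 0, 0, 0 and 1 of them and limma-voom 0, 0, 0, 1 and 1. The erythroid markers had a median log2 change of 1.29, with list means of 0.95 to 3.11 in non-diabetic and 2.19 to 4.55 in type 2 tissue.

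A further 20 genes met the naming rule and, apart from H2-DMb1, are given by name only, since their calls were near the threshold (adjusted p of 0.0217 to 0.0494) and ended on leaving out any 1 of between 2 and 13 of the 16 libraries. They were H2-DMb1, Gas6, Soat1, Slc7a11, Cry2, Nr1d1, Emcn and Erg, named above, and Atcayos, Sfrp2, Cd300e, Itgax, Casp4, Csf3r, Lrrc15, Fads1, Mthfd2, Slc11a1, Cdkn1a and Mcm3.

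The named genes with the largest rises included several interferon-linked families outside the effector list. Slfn4, a Schlafen gene of myeloid cells, was at 4.27 to 12.8 CPM (median 9.31) in non-diabetic and 23.1 to 88.6 CPM (median 33) in type 2 tissue, without overlap, and rose by 2.36 (SE 0.29, adjusted p = 1.49e-05). Oas1g was at 2 to 4.72 CPM (median 3.94) in non-diabetic and 9.95 to 17.8 CPM (median 12.5) in type 2 tissue, without overlap, and rose by 1.86 (SE 0.17, adjusted p = 4.17e-07). The Ifi200 family genes Ifi213, Ifi206 and Ifi208 rose by 1.65 (SE 0.16), 1.63 (SE 0.19) and 1.48 (SE 0.16), and Ms4a4c, Phf11a, Slfn1 and Gpr171 by 1.80 (SE 0.21), 1.60 (SE 0.24), 1.53 (SE 0.21) and 1.49 (SE 0.25), each without overlap. Ifi27l2a, an interferon-induced mitochondrial protein, rose by 1.30 (SE 0.13, adjusted p = 1.71e-06). Among called genes of at least 1 in mean log2 CPM with a settled symbol, Alox15, a lipoxygenase of macrophages and eosinophils, had the largest change. It was at 0.0887 to 1.07 CPM (median 0.615) in non-diabetic and 0.333 to 21.6 CPM (median 3.31) in type 2 tissue. The groups thus overlapped and the spread within type 2 tissue was wide. In edgeR Alox15 rose by 3.15 (SE 0.71, adjusted p = 0.00796). With limma-voom's quality weights its change was 1.58 (adjusted p = 0.253). Reads of the Ifi200, Slfn and Oas1 families can come from close paralogs.

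Adgrl1, a latrophilin adhesion receptor, had the smallest p of any fall: it was at 72.5 to 94.6 CPM (median 86.2) in non-diabetic and 48.9 to 64.8 CPM (median 57.1) in type 2 tissue, without overlap, and fell by 0.56 (SE 0.082, adjusted p = 0.000124). Eda, the TNF-family ligand ectodysplasin, fell by 0.73 (SE 0.11, adjusted p = 0.000257), and Thbs3, Gpr153, Rnf157 and Fgd1 fell by 0.68 (SE 0.12, adjusted p = 0.00104), 0.37 (SE 0.065, adjusted p = 0.000958), 0.50 (SE 0.086, adjusted p = 0.000686) and 0.41 (SE 0.072, adjusted p = 0.000994), each without overlap. By size the leading falls among the named genes, beside Eln, were Islr2, by 1.34 (SE 0.24), and Rtl3, by 1.32 (SE 0.33). Rtl3 was not called in edgeR without non-diabetic replicates 4 and 5 together (-0.89, adjusted p = 0.0826). The amino acid transporter Slc6a7 fell by 1.31 (SE 0.23) and the metalloprotease Adamts16 by 1.25 (SE 0.26). Fbln7, a fibulin, fell by 1.21 (SE 0.29), the matrix protein Abi3bp by 1.20 (SE 0.30), Prrt4 by 1.09 (SE 0.21) and the noncoding Dio3os by 1.03 (SE 0.25). The strand setting of the counting is not given, so Dio3os is uncertain.

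A direct test against type 1 diabetic infarcts of the same day asked which of these differences set type 2 tissue apart from the other diabetic group. The library names carry lo_STZ_HFFD in the type 2 group and hi_STZ in the type 1 group, so type of diabetes and induction cannot be told apart. Type 2 tissue had 217 genes higher (1.19 percent) and 275 lower (1.51 percent) of 18165. Antiviral effectors were higher in 19 of 30 members with 0 lower (median 0.42), class I genes in 6 of 16 and NK markers in 4 of 12, with 0 lower in each. Irf7 was higher by 0.70 (SE 0.12, adjusted p = 0.00539), B2m by 0.57 (SE 0.078, adjusted p = 0.000497), Bst2 by 0.69 (SE 0.10, adjusted p = 0.00092) and Oas2 by 0.79 (SE 0.13, adjusted p = 0.00303). Among T cell markers 0 of 18 differed in edgeR, though 10 had an unadjusted p under 0.05. Lower in type 2 tissue were 5 of 11 resident macrophage markers, Mrc1 among them at -0.99 (SE 0.17, adjusted p = 0.00472), and 9 of 20 sterol synthesis genes. The chemokine Ccl8 was lower too, at -0.82 (SE 0.18, adjusted p = 0.0146), although it rose against non-diabetic tissue. Over the matrix lists 2 of 128 genes were higher (1.56 percent) and 1 lower (0.781 percent), all of them in the collagen and collagen processing lists. Among 20 elastic fibre genes 0 differed in edgeR, and 9 had an unadjusted p under 0.05.

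These counts varied with single libraries and tools. The number higher was 473 without type 1 replicate 3, and 72, 111 and 90 without type 1 replicates 6, 7 and 8; it was 93, 139, 91 and 139 without type 2 replicates 2, 4, 6 and 8. The number lower was 507 without type 1 replicate 3, 85, 144 and 105 without type 1 replicates 6, 7 and 8, and 113, 132, 85, 168 and 128 without type 2 replicates 2, 4, 6, 7 and 8. DESeq2 called 482 higher and 554 lower, and with libraries summed by leading number both counts were 0. The 6 named values above kept their call without each of the 16 libraries in turn.

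A last test asked whether the type 2 difference itself changed between day 7 and day 28, each day measured against its own non-diabetic libraries. The days stand in separate deposited tables, so what differs between the tables and the day itself cannot be told apart. Of 20421 genes, 221 had a more positive difference at day 28 (1.08 percent) and 87 a more negative one (0.426 percent). Over the interferon lists 1 tested member differed, the chemokine gene Ccl7, which was lower, and 0 of 30 antiviral effectors did, with 0 at an unadjusted p under 0.05 in edgeR: Irf7 stood at 0.57 (SE 0.21, adjusted p = 0.148) and B2m at 0.10 (SE 0.13, adjusted p = 0.771). The median log2 change of the effectors was 0.81 at day 7 and 0.87 at day 28. A missed threshold does not show equal effects.

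The matrix lists supplied more of the differences than the interferon lists. Of the 18 collagens 5, and of the 20 proteoglycans and glycoproteins 3, had a more positive type 2 difference at day 28, and 0 a more negative one. Of the matrix lists, Thbs2 differed by 1.03 (SE 0.25, adjusted p = 0.0241) and Smoc2 by 0.63 (SE 0.13, adjusted p = 0.00824) in edgeR. Outside the matrix lists, Igfbp4 differed by 0.99 (SE 0.21, adjusted p = 0.0115) and Fbln7 by 1.82 (SE 0.32, adjusted p = 0.00183). Islr2 and Rnf157, also outside them, differed by 1.33 (SE 0.32, adjusted p = 0.02) and 0.73 (SE 0.13, adjusted p = 0.00183). At day 28 the differences of these 6 genes from non-diabetic tissue were, in that order, 0.25, 0.11, 0.29, 0.63, 0.0045 and 0.25. These 6 kept their call without each of 37 libraries in turn. They were named for their falls at day 7, so the direction of this difference is partly set by that choice. The total of more positive genes was 99 and 120 without day 7 non-diabetic replicates 4 and 5, 405 without replicate 7, 121 and 101 without day 7 type 2 replicates 1 and 3, and 339 without day 28 non-diabetic replicate 3; summed by leading number it was 0. The total of more negative genes ranged from 37 without day 7 type 2 replicate 3 to 250 without day 7 non-diabetic replicate 7.

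**Figure D5:**
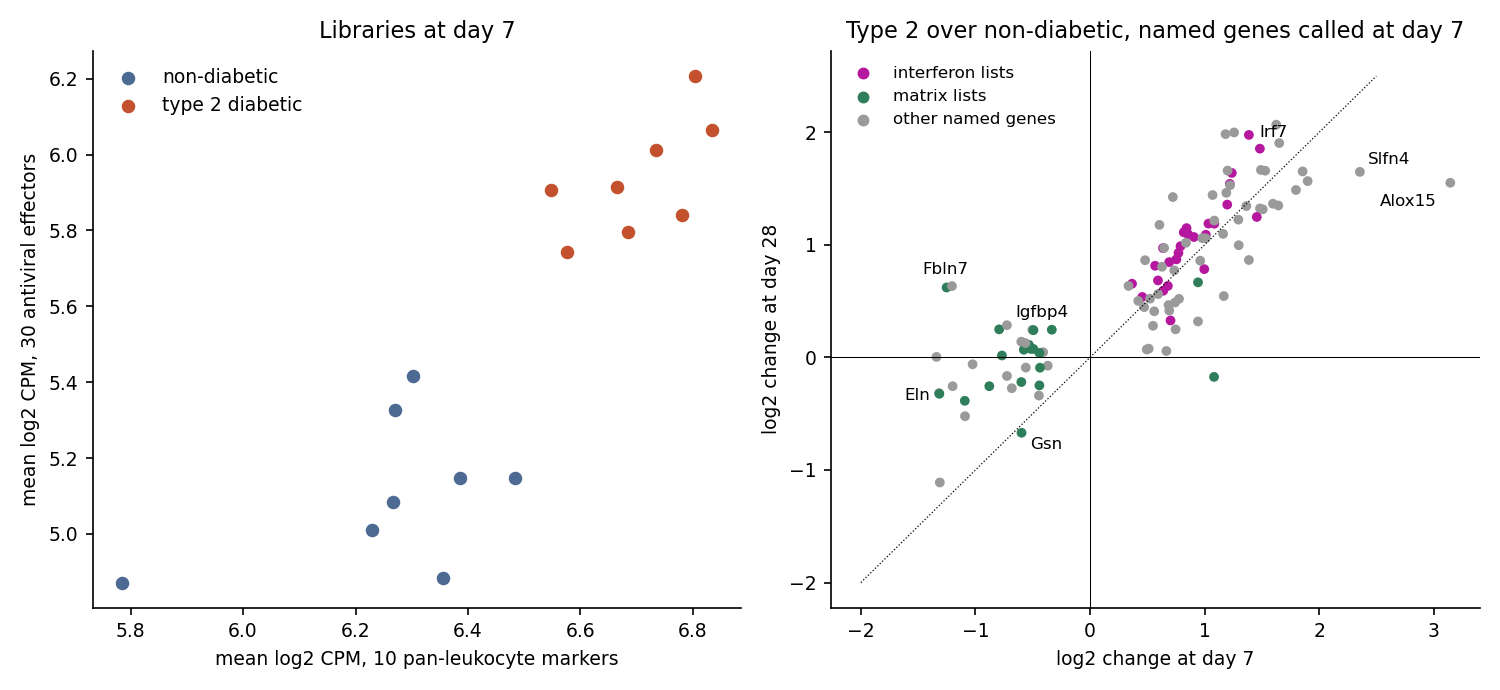
Left, each point is 1 day 7 library: mean log2 CPM of 10 pan-leukocyte markers (x axis) against mean log2 CPM of 30 antiviral effectors (y axis); the 8 type 2 libraries (orange) lie above the 8 non-diabetic libraries (blue) on both axes. Right, log2 change of type 2 over non-diabetic tissue at day 7 (x axis) and day 28 (y axis) for the named genes called at day 7, chosen by the day 7 values; the dotted line marks equal change, interferon-list genes lie above 0 on both axes, and the matrix-list genes that fell at day 7 lie on both sides of 0 at day 28.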

How the data were processed

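RNA of left ventricular infarct was sequenced from stranded mRNA libraries, per the labels' protocols. The authors deposited raw gene counts per Ensembl identifier, per the file headers; the submitters' processing notes name mm39 and DESeq2, but aligner, counter, strand setting and annotation are not given in the sources read here. Of the small counts (1 to 49) 76.4 percent were even numbers. Symbols from GENCODE M21 matched 51948 of 56941 identifiers, which held 99.34 percent of counts.

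Groups were taken from the titles. In R 4.3.3, edgeR 4.0.16 (TMM scaling, filterByExpr with a minimum count of 10 and total of 15, glmQLFit, glmQLFTest) was fitted to all 24 day 7 libraries, and to all 55 for the day 28 comparison; adjusted p-values are Benjamini-Hochberg over all genes tested. SE is the log2 change over the square root of F. Levels are TMM-scaled CPM; list means are of log2 CPM with a prior count of 2. Lists are described by counts and medians, with no test. The fit was tested on simulated data. Libraries of a group differed by more than sampling noise (chi-square per gene of at least 17.6). Replicate numbers did not pair the libraries: the correlation of same-numbered deviations ran from -0.159 to 0.339.

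The members, the 61 gene lists and the alternatives were chosen with earlier results of these data known. Named genes were the 12 largest changes and the 8 smallest p in each direction among called genes of at least 1 in mean log2 CPM that have a settled symbol, up to 3 called members per list and direction (or the member with the smallest p), and a fixed panel. Some genes that this rule takes are not reported here. Alternatives were DESeq2 1.42.0, limma 3.58.1 (voom with quality weights), RLE scaling, no filter, the compared groups alone, a replicate block, cardiomyocyte and leukocyte covariates, summing by the leading number of the library name, each library left out, and, added after the data were seen, non-diabetic replicates 4 and 5 left out together.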

Additional observations from a re-analysis of the deposited data

Results flagged for a closer look

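In 394 groups of 8 libraries looked at (136 genes and 61 list means in each condition), 24 gene values and 15 list means had 1 library far from the rest on the log2 CPM scale, with a gap to its nearest neighbour above Dixon's 95% critical value. Chance gives this in about 1 in 20 groups. The library concerned was non-diabetic replicate 5 in 13 cases, type 2 replicate 1 in 8 and non-diabetic replicate 2 in 7.

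Non-diabetic replicate 5 was lowest for Alox15 (-2.84), Mgl2 (-1.87), Il1b (-0.31), Mmp13 (-1.15), Hk2 (6.36) and E2f1 (3.28), and highest for Col5a1 (11.98). Among list means it was lowest for class II presentation (4.44), T cell markers (-0.06), patrolling monocyte markers (3.09), plasmacytoid dendritic cell markers (2.64) and conventional dendritic cell markers (0.90), and highest for the guanylate-binding and immunity-related GTPases (5.15). Non-diabetic replicate 2 was lowest for Zbp1 (3.31), Ccl8 (3.36), Fcgr1 (4.94), Hk3 (4.16) and Aurkb (3.05), and for the means of macrophage markers (6.52) and pan-leukocyte markers (5.78). Non-diabetic replicate 4 had the smallest library (10.76 M counts), was lowest for Postn (12.25) and highest for the mean of B and plasma cell markers (3.88), and non-diabetic replicate 6 was highest for Ly6c2 (2.04).

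Type 2 replicate 1 was lowest for the fibroblast and matrix genes Adamts16 (2.39), Col3a1 (13.08), P3h3 (6.68), Thbs2 (8.42), Postn (12.02) and Tgfb3 (7.16) and for the collagen list mean (9.70), and highest for the endothelial list mean (6.77). Type 2 replicate 2 was lowest for Col5a3 (6.50) and Angptl4 (6.19), type 2 replicate 5 highest for Hk3 (5.94), and type 2 replicate 6 lowest for Klrb1c (-0.30). Type 2 replicate 7 was lowest for the means of glycolysis genes (7.38) and cardiomyocyte markers (7.46), type 2 replicate 3 for Schwann and neural markers (1.08), and type 2 replicate 4 highest for B and plasma cell markers (3.34).

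For 14 named genes the difference between type 2 and non-diabetic tissue itself differed between day 28 and day 7 by edgeR's interaction test, in each case with a more positive value at day 28. All 14 had a negative log2 change at day 7. Most of the naming rule rests on day 7 values, which enter this difference with a minus sign, so the shared direction is partly set by the choice of genes. The difference of log2 changes was 1.33 for Islr2, 1.82 for Fbln7, 0.73 for Rnf157, 0.63 for Smoc2, 1.03 for Thbs2 and 0.99 for Igfbp4, and these held without each library in turn. It was 0.45 for Adgrl1, 0.44 for Fgd1, 0.72 for Ace, 0.83 for Col1a1, 0.72 for Col16a1, 0.77 for Ltbp4, 0.56 for P3h3 and 0.67 for Notch3, and each of these 8 missed the threshold on leaving out at least 3 of the 37 libraries.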

How the results depend on the processing

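The counts for type 2 against non-diabetic tissue at day 7 (700 rises, 636 falls) moved with the setting. With the leukocyte covariate there were 8 rises and 0 falls, and 3, 0 and 0 called members of the interferon (up), immune cell (up) and matrix (down) lists in place of 72, 58 and 32. Summed by leading number there were 167 and 9, and 46, 14 and 0 list members. Falls numbered 299 with no low-count filter, 1035 with the cardiomyocyte covariate and 346 without non-diabetic replicates 4 and 5 together. Leaving out single libraries gave 459 to 1039 rises, 268 to 936 falls, and 66 to 85 interferon, 44 to 61 immune and 19 to 35 matrix list members. Within 1.5 times of the counts above, DESeq2 gave 1000 and 918, limma-voom 998 and 943, RLE scaling 734 and 619, and the compared groups alone 760 and 558. For type 2 against type 1 tissue (217 and 275), DESeq2 gave 482 and 554, no filter 141 and 148, summing 0 and 0, and single libraries left out 72 to 473 and 85 to 507. For day 28 against day 7 (221 and 87), DESeq2 gave 462 and 150, no filter 116 and 42, summing 0 and 0, and single libraries left out 99 to 405 and 37 to 250.

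The replicate block, on numbers that share no stated source, gave 858 rises and 565 falls for type 2 against non-diabetic tissue, and 124 more positive and 67 more negative genes for day 28 against day 7. Of the 8 numbers 3 correlated best with their own number and the others did not.

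Of the 134 called genes of the naming rule that the text names, 106 kept their call with each single library left out; 20 of the others are given by name because their calls ended that way. DESeq2 and RLE scaling ended the call of 0 of the 134, the compared groups alone of 3, the replicate block of 4, limma-voom of 7 (among them Alox15 and Ccr2) and no filter of 14. Leaving out non-diabetic replicates 4 and 5 together ended 27, of which 13 have values in the text (Rtl3, Pdcd1, Ace, Adgre1, Col5a1, Col5a3, Tgfb3, Mmp23, Timp2, Slc16a7, E2f1, Pdgfrb and Notch3). With the leukocyte covariate Cilp changed sign to 0.091 and Cfp to -0.056. The cause was not tested. In the 150 bases nearest the start, the GAAANNGAAA share was 25.9 percent for interferon members that rose, 11.0 for all rises and 1.85 for the whole table, and the TTCNNNGAA share 5.12 for all rises and 4.77 for the whole table; a shorter window holds fewer matches.

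Depth limits genes of a few CPM most in non-diabetic replicate 4 (10756242 counts), and the labels do not say that libraries sharing a leading number are independent.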
